A study of Mus musculus with 4 samples.

Results

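The genes described here are 10 scavenger and apoptotic cell uptake genes of the mouse, namely Mertk, Axl, Gas6, Timd4, Stab1, Msr1, Marco, Cd163, Scarb1 and Mfge8, measured in bone marrow-derived macrophages (BMDMs). They were taken by name, as the non-control probes whose gene name in the scanner files was a member of this set. These were 12 of the 55681 non-control probes of the array, with 1 probe for 8 of the genes and 2 probes each for Msr1 and Scarb1. Each of 4 conditions was measured on 1 Agilent whole mouse genome array in 1 colour, so no difference between conditions has a replicate check and no test was possible.

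All BMDMs came from C57BL/6J mice of 10 weeks and were differentiated for 6 days with supernatant of L929 cells, a source of macrophage colony-stimulating factor. Wild-type M1 BMDMs then received IFN-γ at 20 ng per ml with LPS at 100 ng per ml for 2 days, and wild-type M2 BMDMs received IL-4 at 50 ng per ml for 2 days. Lamtor1-deficient BMDMs, labelled p18 (2400001E08Rik) -/-, received IL-4 alone at the same concentration and for the same time, and Torin1-treated wild-type BMDMs received IL-4 and 250 nM of the mTOR inhibitor Torin1 together. Lamtor1 is a subunit of the Ragulator, which holds mTORC1 at the lysosome. By the methods of the study, conditional knockouts were Lamtor1 flox/flox mice with a heterozygous LysM-Cre, which is active in myeloid cells, and their littermate controls were Lamtor1 flox/flox, whereas the labels give the other 3 arrays as wild type. The sources used here do not say whether an array held the RNA of 1 mouse or of several.

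Macrophages take up dying cells by receptors that bind phosphatidylserine, either directly or through a soluble bridging protein. Mertk and Axl are receptor tyrosine kinases of the TAM family whose ligand Gas6 bridges them to phosphatidylserine, Mfge8 bridges it to integrins, and Timd4 and Stab1 bind it themselves. Msr1, Marco, Cd163 and Scarb1 are scavenger receptors for modified lipoproteins, bacterial surfaces, haemoglobin bound to haptoglobin, and high-density lipoprotein. In macrophages Mertk is known as a target of LXR, a nuclear receptor that responds to sterols from ingested cells, and Stab1 and Msr1 are used as markers of alternatively activated macrophages.

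Signal is given as normalised signal, which is the background-subtracted spot signal divided by the 75th percentile of that array's non-control probes, so that 1 stands for this percentile. A probe counts as measured where the scanner software called it well above background. Timd4 and Cd163 were not well above background on any array. The other 8 genes were well above background on all 4 arrays. The 75th percentile itself lay at a signal of 287 in M1, 595 in M2, 536 in Lamtor1-deficient BMDMs and 470.0 with Torin1, and between 50.9% and 55.4% of probes were well above background. The only error that could be measured was the spread over repeated spots of 1 array, which gave a log2 ratio to M2 a median technical SD of between 0.090 and 0.098. It leaves out the spread between cultures. The label checks held, since 2400001E08Rik, the array's name for Lamtor1, had 2.34% of its M2 level left in Lamtor1-deficient BMDMs, and Nos2, an M1 gene, had a normalised signal of 581 in M1, 0.384 in M2, 18.6 in Lamtor1-deficient BMDMs and 16.5 with Torin1.

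Loss of Lamtor1 and Torin1 went with low Stab1 and Msr1 and high Mfge8. M1 BMDMs had high Marco and low Mfge8 and Scarb1. Of the 8 measured genes, Mfge8 was at least 2-fold higher in Lamtor1-deficient than in M2 BMDMs, and Axl, Stab1 and Msr1 were at least 2-fold lower. Among all genes measured on at least 1 of these arrays, 10.6% were higher and 9.97% lower by that threshold, and among all non-control probes 7.79% were higher and 8.76% lower. In Torin1-treated BMDMs Mfge8 was again the 1 gene higher, though at a log2 ratio of 0.96 with the median shift and 0.82 with quantile normalization it was under 2-fold, and Stab1, Msr1 and Scarb1 were the 3 lower, beside 14.1% of measured genes higher and 15.4% lower, or 16.5% and 9.32% of all probes. In M1 BMDMs Marco was the 1 measured gene at least 2-fold higher, and Scarb1 and Mfge8 were the 2 lower, beside 27.5% of measured genes higher and 28.2% lower, or 35.4% and 13.9% of all probes. The counts in M1 are thus no larger a share than those of all measured genes. By its other probe Msr1 would count as higher in M1 too, at a log2 ratio of 1.95. With the median shift Axl would count as lower in M1, at -1.08. The 3 comparisons share the M2 array, so a deviation of that array enters all of them.

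The choice of scaling matters most for M1. A shift to each array's median in place of the 75th percentile moves every log2 ratio of M1 over M2 by -0.82, of Torin1-treated over M2 by -0.25 and of Lamtor1-deficient over M2 by 0.06. The last 2 changes differ in sign, so both lower any direct ratio of Torin1-treated to Lamtor1-deficient BMDMs given below. Of the probes past 2-fold in M1, 71.8% were higher with the 75th percentile, 43.0% with the median shift and 50.9% with quantile normalization. In Torin1-treated BMDMs these shares were 64.0%, 47.8% and 52.2%.

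**Figure D1:**
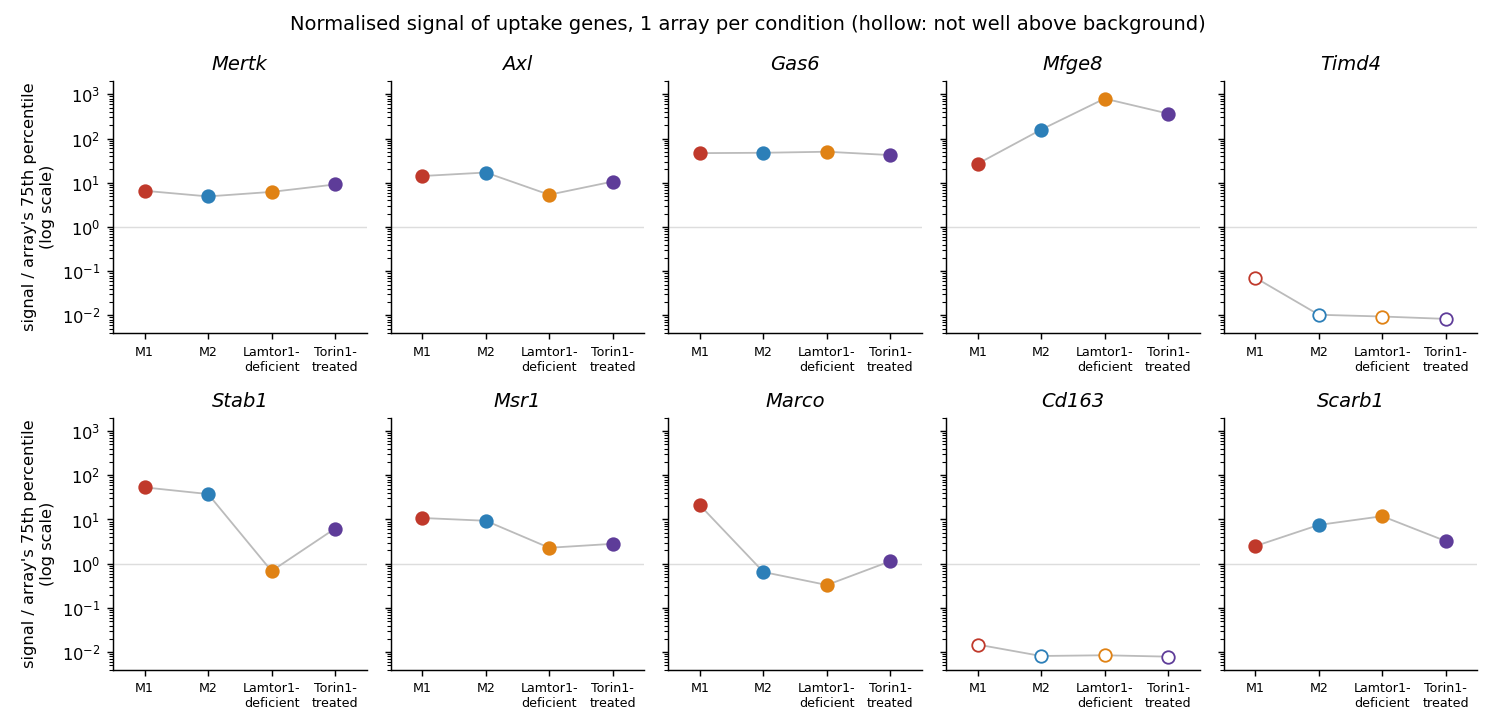
Normalised signal (log scale) of the 10 uptake genes on the 4 arrays, 1 point per array and gene, for the brightest probe of each gene. Hollow points mark probes not well above background, which are all points of Timd4 and Cd163. Stab1 was lowest in Lamtor1-deficient BMDMs at 0.683, Marco highest in M1 at 20.9 and Mfge8 highest in Lamtor1-deficient BMDMs at 800.3, while Gas6 stayed between 42.3 and 50.4.

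The promoter windows of the 3 genes with the largest differences were chosen after their values were seen, and are shown because a promoter is where shared regulatory letters would first be looked for. They are the 250 bases before the gene's start from RefSeq on GRCm38.p6, 5′ to 3′ on the gene's strand, with GAGGAA (or its reverse complement TTCCTC), the core bound by the macrophage factor PU.1, in capitals. Stab1 lies at chr14:31168642-31168891, Marco at chr1:120505025-120505274 and Mfge8 at chr7:79149061-79149310, all on the minus strand.
Stab1: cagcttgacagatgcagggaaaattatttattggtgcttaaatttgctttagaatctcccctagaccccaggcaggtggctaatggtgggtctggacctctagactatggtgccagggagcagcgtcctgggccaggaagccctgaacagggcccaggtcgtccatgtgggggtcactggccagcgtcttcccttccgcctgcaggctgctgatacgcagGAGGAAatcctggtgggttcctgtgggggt
Marco: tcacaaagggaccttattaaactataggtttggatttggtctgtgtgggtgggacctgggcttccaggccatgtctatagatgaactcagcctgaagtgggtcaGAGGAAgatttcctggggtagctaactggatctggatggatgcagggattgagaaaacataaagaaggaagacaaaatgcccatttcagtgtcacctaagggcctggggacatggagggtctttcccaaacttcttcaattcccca
Mfge8: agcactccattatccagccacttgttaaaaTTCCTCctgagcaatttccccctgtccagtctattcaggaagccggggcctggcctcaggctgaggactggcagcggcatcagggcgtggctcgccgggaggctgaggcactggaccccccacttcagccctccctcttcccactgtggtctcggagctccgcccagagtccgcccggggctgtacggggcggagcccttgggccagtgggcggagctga
Each window holds this core once. Of the 10 genes, 8 had a window in the table, and the core was found in those of Axl, Stab1, Marco and Mfge8, 4 of 8, beside 23.3% of all 32851 windows of this length. It thus occurred both in genes that were lower and in a gene that was higher after loss of Lamtor1. Other motifs were searched on both strands. They were a STAT6 site (TTC and GAA with 4 bases between, in 5.85% of all windows), an ISRE (GAAA repeated after 2 bases, 2.98%), an E-box (CACGTG, 6.02%), an AP-1 site (TGANTCA, 6.75%) and an LXR repeat (AGGTCA repeated after 4 bases, 0.0152%). None of these letters occurred in the 8 windows. At such small shares no match in 8 windows is unremarkable for any of these motifs, and it says nothing of sites elsewhere. Msr1 and Scarb1 were not matched in that table.

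Of the TAM receptors, Axl was lower without Lamtor1 and Mertk was not. Mertk, measured by a probe at chr2:128627867-128627926 (mm9, as for all probe positions here), had a normalised signal of 6.59 in M1, 4.92 in M2, 6.22 in Lamtor1-deficient BMDMs and 9.16 with Torin1. It was highest with Torin1 and lowest in M2, and the whole span was 1.86-fold. Its log2 ratio to M2 was 0.34 in Lamtor1-deficient BMDMs and 0.90 with Torin1, the latter higher than that of 86.7% of genes measured on both arrays and 1.03, past 2-fold, with quantile normalization. In M1 the log2 ratio was 0.42, and it was -0.40 with the median shift. Levels in M1 and in Lamtor1-deficient BMDMs lay within 2 technical SD of each other, and the other neighbours in the order lay farther apart.

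Axl, at chr7:26542541-26542600, had a normalised signal of 14.2 in M1, 17.1 in M2, 5.37 in Lamtor1-deficient BMDMs and 10.7 with Torin1. The Lamtor1-deficient array stood lowest, and each step in the order exceeded 2 technical SD. The log2 ratio of Lamtor1-deficient over M2 was -1.67, lower than for all but 460 of 13468 genes measured on both arrays, and that of Torin1-treated over M2 was -0.68. Torin1-treated BMDMs therefore had a 1.98-fold higher Axl signal than Lamtor1-deficient BMDMs. In M1 the log2 ratio was -0.26, which became -1.08 and passed 2-fold with the median shift. With that shift the ratio with Torin1 was -0.93, so M1 stood below Torin1-treated BMDMs and the order of these arrays turned.

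Gas6, the ligand of both receptors, was the gene of this set that differed least. Its probe at chr8:13465444-13465503 gave a normalised signal of 46.8 in M1, 47.7 in M2, 50.4 in Lamtor1-deficient BMDMs and 42.3 with Torin1. No neighbours in this order differed by more than 2 technical SD, and the span over all 4 arrays was 1.19-fold. The log2 ratios to M2 were -0.03 in M1, 0.08 in Lamtor1-deficient BMDMs, which turned to -0.09 with quantile normalization, and -0.17 in Torin1-treated BMDMs. With the median shift the ratio in M1 was -0.85.

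The bridging protein Mfge8 was highest in Lamtor1-deficient BMDMs and lowest in M1. Its probe at chr7:86278689-86278748 gave a normalised signal of 26.9 in M1, 159 in M2, 800.3 in Lamtor1-deficient BMDMs and 367 with Torin1. M1 was lowest and Lamtor1-deficient BMDMs highest, 29.7-fold apart, and every step exceeded 2 technical SD. The log2 ratio of Lamtor1-deficient over M2 was 2.33, and 235 of 13468 genes measured on both arrays were higher. With Torin1 the log2 ratio was 1.21, higher than that of 92.0% of genes. It was past 2-fold in 8 of 10 other settings, but several of these could not move it. The background filters, floor and mean of probes left it unchanged, since the 1 probe of Mfge8 was well above background on every array. Of the settings that rescale the arrays, the median shift gave 0.96 and quantile normalization 0.82, both under 2-fold. The percentile over probes measured on every array gave 1.29, and normexp also stayed past 2-fold. In M1 the log2 ratio was -2.56, lower than that of all but 916 of 12833 genes.

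Of the genes that bind phosphatidylserine directly, Stab1 had the widest span of the whole set. Stab1, also called stabilin-1, was measured by a probe at chr14:31952288-31952347. Its normalised signal was 53.2 in M1, 37.6 in M2, 0.683 in Lamtor1-deficient BMDMs and 6.23 with Torin1. M1 and M2 were high, Torin1-treated BMDMs stood between and Lamtor1-deficient BMDMs were lowest, with a span of 77.8-fold. The log2 ratio of Lamtor1-deficient over M2 was -5.78, and 9 of 13468 genes measured on both arrays had a lower one. The log2 ratio of Torin1-treated over M2 was -2.59, with 331 of 13499 genes lower. Stab1 was thus 9.12-fold lower in Lamtor1-deficient than in Torin1-treated BMDMs. In M1 its log2 ratio was 0.50, and it was -0.32 with the median shift.

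Timd4, the phosphatidylserine receptor also called Tim4, had a signal of 20.4 in M1, 6.16 in M2, 5.07 in Lamtor1-deficient BMDMs and 3.93 with Torin1 at chr11:46657173-46657232. None of these was called well above background, so no ratio is given for it as a measurement. Without regard to background its value in M1 would pass the 2-fold threshold, and the number of genes at least 2-fold higher in M1 would be 2.

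Of the class A scavenger receptors, Msr1 was low without Lamtor1 and with Torin1, and Marco was high in M1. Msr1, by its brightest probe at chr8:40689158-40689217, had a normalised signal of 10.8 in M1, 9.36 in M2, 2.29 in Lamtor1-deficient BMDMs and 2.81 with Torin1. The Lamtor1-deficient and Torin1-treated arrays lay below the M1 and M2 arrays. The log2 ratio was -2.03 in Lamtor1-deficient BMDMs, where 311 of 13468 genes were lower, and -1.73 in Torin1-treated BMDMs, where 754 of 13499 were. Its log2 ratio in M1 was 0.21, and it was -0.61 with the median shift.

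The M1 value of Msr1 depended on the probe, so the whole of one probe and the start of the other are shown, 5′ to 3′ as the files list them. The probe A_52_P127130 is listed at position 624 of 2 RefSeq transcripts and lies at chr8:40709296-40709355, and the brightest probe A_52_P607128, of which the first 30 bases are given, is listed at position 3231 of 1 transcript.
A_52_P127130: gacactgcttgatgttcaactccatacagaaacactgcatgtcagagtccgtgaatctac
A_52_P607128: aagtcatcttacatccaaaactacacgtat
By A_52_P127130 the normalised signal was 25.6 in M1, 6.63 in M2, 1.48 in Lamtor1-deficient BMDMs and 1.43 with Torin1. Here M1 stood well above M2, with a log2 ratio of 1.95. The log2 ratios of -2.17 in Lamtor1-deficient BMDMs and -2.21 with Torin1 had the direction of those by the brightest probe. The mean of both probes gave 1.08 in M1, past 2-fold. Which transcripts the cells made was not measured.

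**Figure D2:**
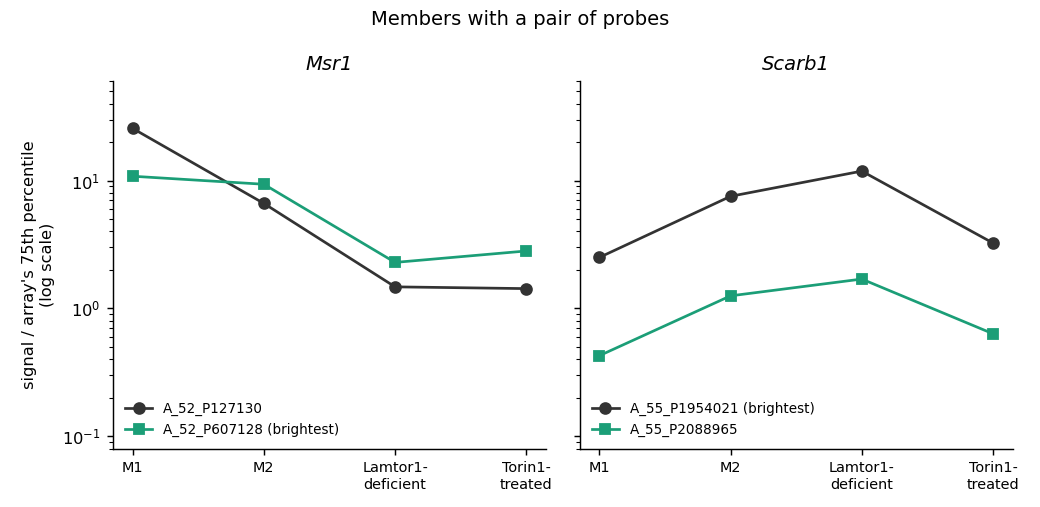
Normalised signal (log scale) of both probes of Msr1 and of Scarb1 on the 4 arrays, 1 point per probe and array. The lines of the Msr1 probes differ from M1 to M2, with a log2 ratio of M1 over M2 of 1.95 for A_52_P127130 and 0.21 for the brightest probe A_52_P607128, and both are low in Lamtor1-deficient and Torin1-treated BMDMs, while the Scarb1 probes keep the same order of arrays.

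Marco, a receptor for bacteria and particles, had a normalised signal of 20.9 in M1, 0.648 in M2, 0.330 in Lamtor1-deficient BMDMs and 1.14 with Torin1 at chr1:122371115-122371134, the part of its probe that the file locates. M1 stood far above the rest, and the span was 63.3-fold. The log2 ratio of M1 over M2 was 5.01, and 147 of 12833 genes were higher. Among the IL-4-treated groups, the log2 ratio was -0.97 in Lamtor1-deficient BMDMs and 0.81 with Torin1, so that Torin1-treated BMDMs had 3.45-fold more signal than Lamtor1-deficient ones. The former value lies at the 2-fold threshold and passed it, at -1.04, when the 75th percentile was taken over probes measured on every array.

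Cd163, the receptor for haemoglobin bound to haptoglobin, had a signal of 4.25 in M1, 4.87 in M2, 4.56 in Lamtor1-deficient BMDMs and 3.72 with Torin1 at chr6:124270436-124270495. None of these signals was well above background. The lowest signal of any probe called so was between 15.7 and 21.6 on the 4 arrays, and the arrays give no order of conditions for Cd163.

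Scarb1, the high-density lipoprotein receptor, had a normalised signal of 2.50 in M1, 7.53 in M2, 11.9 in Lamtor1-deficient BMDMs and 3.25 with Torin1 by its brightest probe at chr5:125757483-125757542. Lamtor1-deficient BMDMs stood highest, and M1 and Torin1-treated BMDMs lowest, with every step beyond 2 technical SD. The log2 ratios to M2 were -1.59 in M1, 0.65 in Lamtor1-deficient BMDMs and -1.21 with Torin1. Of genes measured on both arrays, 2151 of 12833 were lower in M1, 1982 of 13468 higher without Lamtor1 and 1369 of 13499 lower with Torin1. The other probe, at chr5:125761540-125761599, gave log2 ratios of -1.55, 0.44 and -0.98 in the same order, with the last just inside the 2-fold threshold. Lamtor1-deficient BMDMs had 3.65-fold more Scarb1 signal than Torin1-treated BMDMs.

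**Figure D3:**
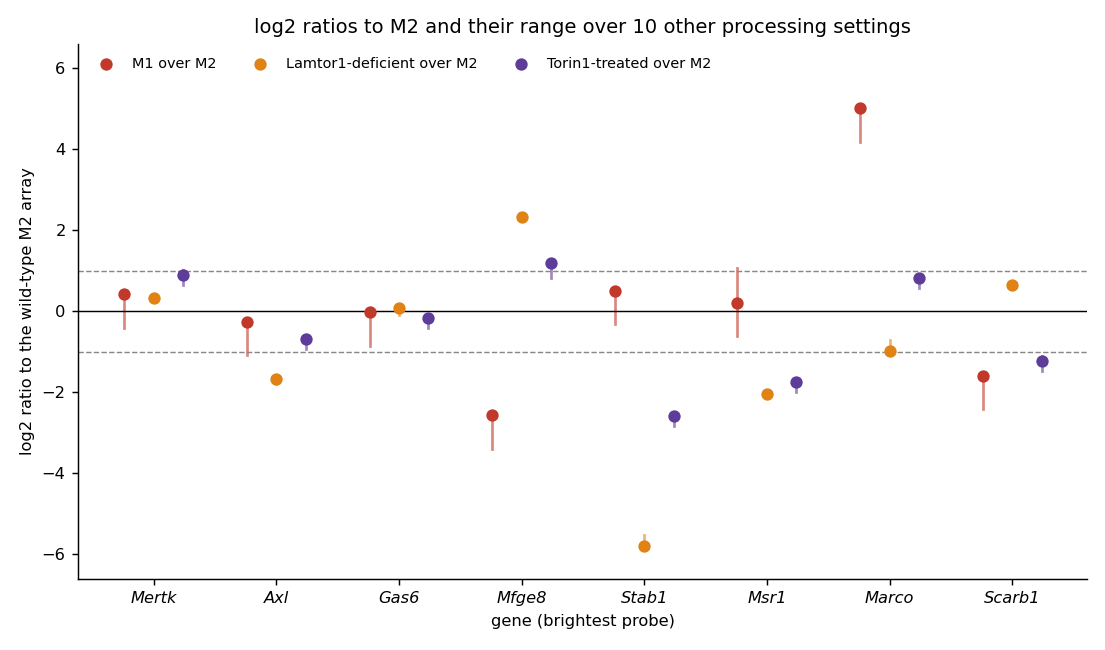
Log2 ratio of each measured gene to the wild-type M2 array (points, 1 array against 1) with the range over 10 other processing settings (lines) and the 2-fold thresholds (dashed). Stab1, Msr1 and Mfge8 keep their side in Lamtor1-deficient BMDMs, where the ratios are -5.78, -2.03 and 2.33, while the lines of M1 reach down by the 0.82 of the median shift and cross 0 for Mertk, Stab1 and Msr1.

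Over the 8 measured genes the median log2 ratio was 0.09 in M1, -0.45 in Lamtor1-deficient BMDMs and -0.43 with Torin1, beside medians of 0.05, 0.09 and 0.03 over all measured genes. With the median shift the median of the 8 genes in M1 was -0.73. The set therefore did not move as 1 body: in Lamtor1-deficient BMDMs its log2 ratios ran from -5.78 for Stab1 to 2.33 for Mfge8.

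**Figure D4:**
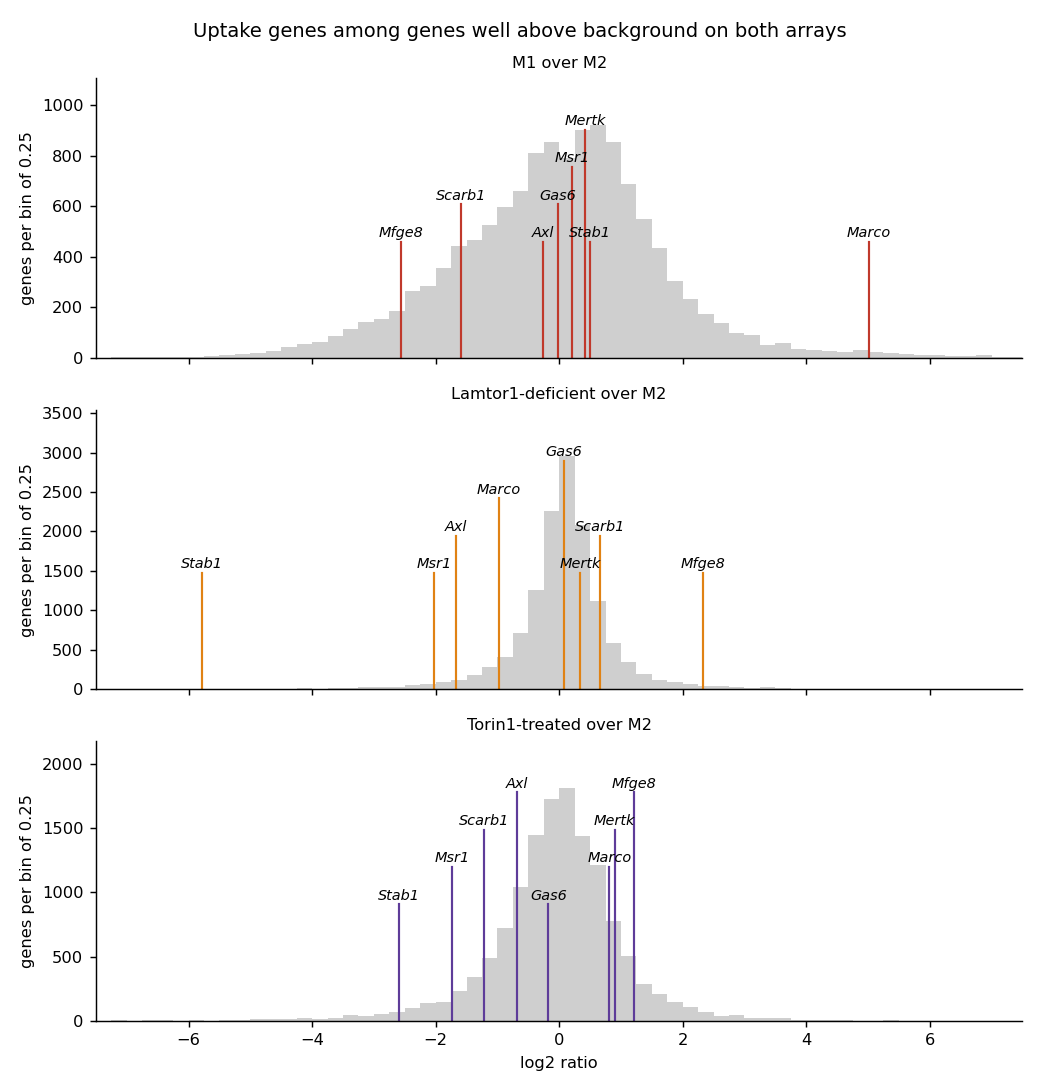
Log2 ratio to M2 of the 8 measured uptake genes (coloured lines, whose heights only separate the names) over the histogram of all genes well above background on both arrays (grey, genes per bin of 0.25). Stab1 at -5.78 and Mfge8 at 2.33 lie in the tails for Lamtor1-deficient BMDMs and Marco at 5.01 in the upper tail for M1, where the histogram is wider.

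For each of the 8 genes, the genes whose 3 log2 ratios to M2 were nearest were looked up among the 12413 genes measured on every array, by the largest of the 3 absolute differences. Scarb1 was closest to Uck2, with a largest difference of 0.08, followed by Ddr2 and Rangrf. Marco was closest to Cmpk2, at 0.30, then to Procr and Xaf1. Mfge8 was closest to Endod1, at 0.51, then to Mtfp1 and Ahr. The first neighbour of Stab1, Il21r, differed by 1.40 and was followed by Pdgfb and 3110047P20Rik. Few genes had so low a log2 ratio as the -5.78 of Stab1 without Lamtor1, so this distance is no separate trait of it. Msr1 was nearest to Rbpj (0.26), Pitpnc1 and Cdk5r1, Axl to Gm12633 (0.13), Slc14a2 and Olfr128, Mertk to Cnfn (0.07), Ap4b1 and 2700060E02Rik, and Gas6 to Ccdc137 (0.06), Xylt1 and Spata7. The nearest to Stab1 within the set was Msr1, which differed from it by 3.75.

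The other genes of the uptake pathway were described by the same threshold, in 6 further lists. Their counts stand beside the shares of all measured genes, 27.5% higher and 28.2% lower in M1, 10.6% and 9.97% without Lamtor1 and 14.1% and 15.4% with Torin1, and with so few genes in a list a count near these shares is no result about it. Of the 10 other bridging molecules and opsonins, all measured, 5 were at least 2-fold lower and 1 higher in Lamtor1-deficient BMDMs, and 6 lower and 0 higher with Torin1, with median log2 ratios of -1.07 and -2.43. The 3 chains of C1q, the complement component that coats dying cells, were among the lower. C1qa had a normalised signal of 92.2 in M1, 186 in M2, 4.40 in Lamtor1-deficient BMDMs and 1.37 with Torin1, a log2 ratio of -5.40 without Lamtor1 and -7.08 with Torin1. C1qb had log2 ratios of -3.12 and -5.14, and C1qc of -2.91 and -5.42. Each chain was lowest with Torin1. Pros1, or protein S, the other ligand of the TAM receptors, had a normalised signal of 0.462 in M1, 6.99 in M2, 5.45 in Lamtor1-deficient BMDMs and 0.374 with Torin1. It was low in M1 and with Torin1, at log2 ratios of -3.92 and -4.23, and stood at -0.36 without Lamtor1. Edil3, a relative of Mfge8, had log2 ratios of -2.39 without Lamtor1 and -3.10 with Torin1. Ptx3, the 1 gene higher without Lamtor1 and named after its value was seen, stood at 1.54 in Lamtor1-deficient BMDMs and -1.77 with Torin1. In M1, 6 of the 10 were lower and 1, Thbs1 at 2.09, was higher, or 8 and 1 with the median shift.

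Of the 14 other apoptotic cell receptors, 12 were measured in Lamtor1-deficient BMDMs, with 4 higher and 2 lower, and 12 with Torin1, with 3 higher and 1 lower. Stab2, the relative of Stab1, had a normalised signal of 0.0951 in M1, 6.94 in M2, 0.835 in Lamtor1-deficient BMDMs and 0.346 with Torin1. It was lower than in M2 on all other arrays, with log2 ratios of -6.19 in M1, -3.06 without Lamtor1 and -4.33 with Torin1, where Stab1 stood at 0.50 in M1. Cd300lf, which binds phosphatidylserine, went the other way, with a normalised signal of 333 in M1, 0.565 in M2, 23.7 in Lamtor1-deficient BMDMs and 4.34 with Torin1. Its log2 ratios were 9.20, 5.39 and 2.94, and the lowest of its other probes gave 7.05, 3.24 and 2.22. Havcr2, or Tim3, had a log2 ratio of 2.77 without Lamtor1 and -0.70 with Torin1. Tyro3, the third TAM receptor, stood at 2.42 without Lamtor1 and -0.03 with Torin1 by its brightest probe, but at -0.07 without Lamtor1 by another. Itgb3, a chain of the integrin that binds Mfge8, stood at 2.01 and 1.86 by its brightest probe and at 0.28 and 0.85 by another, and Lrp1 at 1.79 with Torin1 by its brightest probe and 0.31 by another. For Tyro3, Itgb3 and Lrp1 the side of the threshold thus rests on the probe. Cd36 stood at -4.44 in M1 and at -0.62 and -0.12 in Lamtor1-deficient and Torin1-treated BMDMs. Megf10, another engulfment receptor, was well above background in M1 alone, where it was at least 8.22-fold higher than in M2. In M1, 4 of 13 measured receptors were higher and 5 lower, or 3 and 5 with the median shift, near the shares of all measured genes.

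Of 11 other scavenger receptors, 9 were measured in Lamtor1-deficient BMDMs, with 1 higher and 2 lower. Colec12, a class A receptor, was the higher, at 2.61, and Cxcl16 at -1.63 and Scarf1 at -1.36 were the lower. With Torin1, 1 of 10 was lower and 0 were higher: Cd5l, which macrophages secrete, stood at -3.81 with Torin1, at 3.23 in M1 and at -0.51 without Lamtor1. In M1, 1 of 9 was higher and 5 lower, under the median shift too.

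Of 11 genes of engulfment and the phagosome, all measured, 2 were lower in Lamtor1-deficient BMDMs and 3 with Torin1, or 5 with the median shift, and 0 were higher in either. Abca1, the cholesterol exporter, had log2 ratios of -1.10 in M1, -1.96 without Lamtor1 and -1.08 with Torin1, and Ucp2 of -1.56, -1.15 and -2.88. Abca7 stood at -2.14 with Torin1. In M1, 3 were lower, among them Dock1, a Rac activator, at -5.12, or 4 with the median shift.

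Of 8 nuclear receptors and Maf factors, 0 passed 2-fold by the brightest probe in Lamtor1-deficient BMDMs, or 1 with the median shift, and 2 were higher and 2 lower with Torin1, or 1 and 2 with the median shift. The LXR genes Nr1h2 and Nr1h3 had log2 ratios of 0.32 and 0.77 without Lamtor1 and of 0.59 and 0.14 with Torin1. Their partner Rxra stood at 0.39 and 1.37 by its brightest probe, and at 0.33 and 0.24 by another, and Ppard at 0.99 and 1.19. Maf, a factor of resident macrophages, was at -1.46 with Torin1 and at -0.70 without Lamtor1 by its brightest probe, and at -2.15 and -1.28 by another. In M1, Pparg stood at -2.91, Ppard at 2.05 and Rxra at 4.38 by its brightest probe, though at -0.37 by another. Of the 8 genes, 2 were higher and 2 lower in M1, or 2 and 3 with the median shift. The last list held the sheddases Adam10 and Adam17, which cut Mertk from the surface, and the brake Cd47 with its receptor Sirpa. By the brightest probes, 0 of these 4 passed 2-fold without Lamtor1. Cd47 had log2 ratios of 1.04 in M1, which the median shift takes below 2-fold, -0.19 without Lamtor1 and -0.74 with Torin1. Adam17 stood at 1.53 with Torin1 by its brightest probe and at -0.59 by another, without Lamtor1 at -0.04 and, past 2-fold, -1.81, and in M1 at 1.27 and -0.83. Adam10 stood at -1.73 in M1, where 2 of the 4 were higher by the brightest probe and 1 lower, or 0 and 2 with the median shift.

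**Figure D5:**
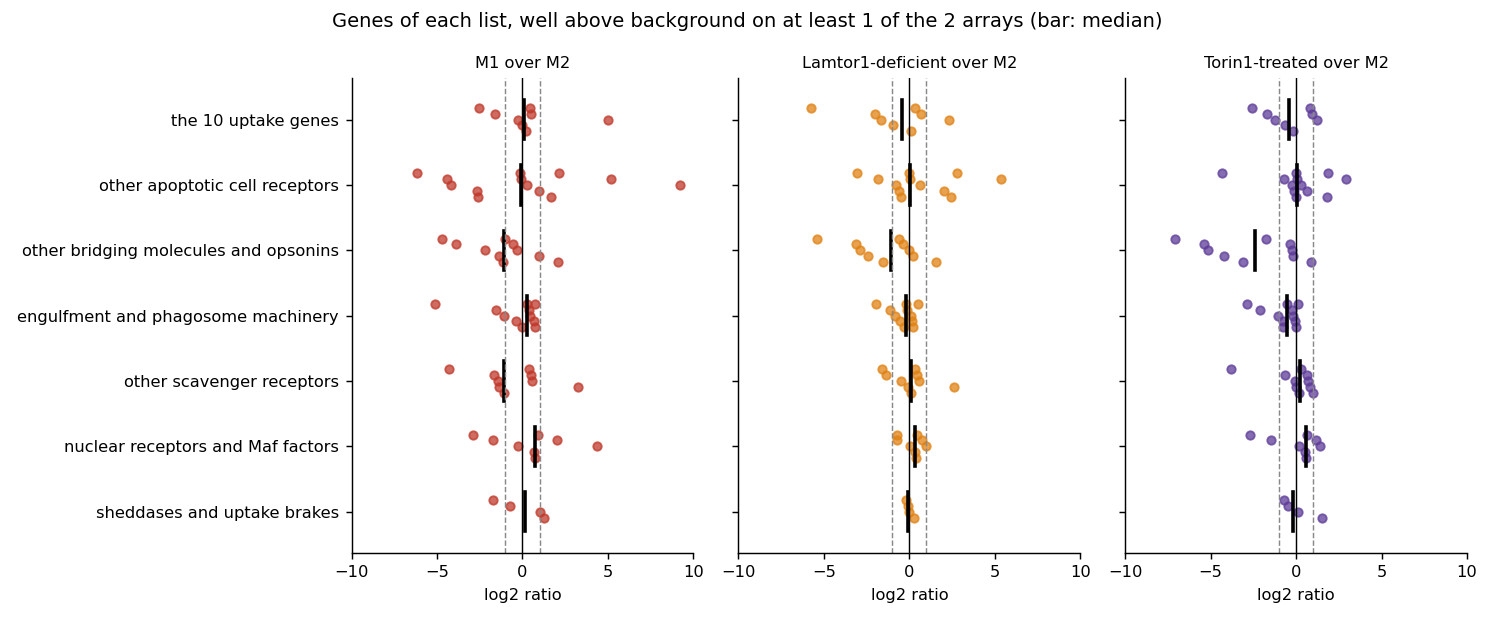
Log2 ratio to M2 of each gene well above background on at least 1 of the 2 arrays (points, spread vertically for sight), by list and comparison, with the list's median (bar) and the 2-fold thresholds (dashed); a gene measured on 1 array only is drawn at its computed ratio. The median of the other bridging molecules and opsonins lies at -1.07 in Lamtor1-deficient BMDMs and -2.43 with Torin1, while that of the 8 measured uptake genes lies at -0.45 and -0.43.

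Markers of cell types moved between the arrays as well. All 6 macrophage markers were well above background on every array, with a summed normalised signal of 397 in M1, 685 in M2, 462 in Lamtor1-deficient BMDMs and 534 with Torin1. Yet Fcgr1, the high-affinity IgG receptor, had log2 ratios of -4.96 and -4.61 in Lamtor1-deficient and Torin1-treated BMDMs, and Emr1, which encodes F4/80, of -2.57 and -2.81, so the low Stab1 and Msr1 stood beside low levels of these 2 of the 6 markers. Cd68 stood at 0.55 and 0.70, Cd14 at -1.86 and 0.00, and Itgam at -0.81 and 0.15, and the median of the 6 was -1.34 without Lamtor1 and -0.14 with Torin1, or -1.64 and -1.45 with the mean of all probes. The other probes of Itgam lay between -2.81 and -1.10 in these groups. Csf1r stood at -0.44 and -0.27 by its brightest probe and between -2.14 and -1.84 by its other probes. The 7 neutrophil markers were all well above background in M2. The 6 of them without Elane summed to 4.41 in M1, 90.5 in M2, 6.30 in Lamtor1-deficient BMDMs and 5.87 with Torin1. Elane went the other way, at 52.1 in M1, 12.4 in M2 and 18.6 in Lamtor1-deficient BMDMs, and its spot was left out as an outlier on the Torin1 array. S100a9 alone was at 65.3 in M2 and between 1.38 and 2.45 elsewhere. The 6 fibroblast markers summed to 16.0, 43.2, 55.9 and 15.3 in the order M1, M2, Lamtor1-deficient and Torin1-treated. Without Lamtor1, Dcn had a log2 ratio of 1.91, Pdgfra of 1.45 and Col1a2, which made up 36.3 of the 55.9, of 0.23. The 6 lymphocyte markers summed to between 2.00 and 4.11, with Ms4a1 not well above background on any array. On the Lamtor1-deficient array 4 of the 6 were well above background, beside 2 on each other array, and the 2 more were Cd3g, at least 1.79-fold, and Cd8a, at least 2.37-fold above M2. The 6 dendritic cell markers summed to 3.56 in M1 and to between 129 and 296 on the other arrays, where nearly all of it came from Itgax. Of the others, Xcr1 was not well above background on any array, Ccr7 had a log2 ratio of 2.54 without Lamtor1, Clec9a was well above background with Torin1 alone, at least 3.92-fold above M2, and Zbtb46 stood at 3.07 in M1. In RNA of whole cultures, fewer cells of a type and less RNA per cell cannot be told apart, and the part of these markers in the differences of the uptake genes was not tested.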

How the data were processed

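Total RNA of 4 BMDM cultures was labelled with Cy3 and hybridized by the authors to 1 array each. The authors deposited spot intensities from Agilent Feature Extraction, whose version is 10.5.1.1 per the labels and 10.7.3.1 per the file headers. The deposited processed signal is an intensity with background subtracted and spatial trends removed, without normalization across arrays. A deposited table of the series holds the same intensities to within 0.497%. Probe positions (mm9) were read from the annotation columns of the scanner files.

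Control spots and between 170 and 226 outlier spots per array were left out here, spots of one probe were averaged, signals under 1.0 were set to 1.0, each array was shifted to its 75th percentile over non-control probes and log2 was taken, after the methods of the study. For several probes of a gene, the one with the highest mean log2 signal over the arrays stood for it. A difference was counted past 2-fold. Genes were those of the 36163 array names that a RefSeq table (GRCm38.p6) holds, which were 21938. The technical SD is the median over probes spotted at least 8 times. The precision is limited by the number of arrays, and a probe well above background on 1 array of a pair gives only a bound against the other, so its place in a count rests on the direction. There were no replicates, no p-values and no saturated spots.

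All 10 genes were named, with every probe, together with genes of the other lists that were measured and past 2-fold (at most 4 per list and comparison), Nr1h2, Nr1h3, Rxra, Pparg, Pros1, Tyro3, Cd36, Cd47 and the 3 nearest genes of each. The genes and lists were chosen with earlier results of these data known. Some genes and motifs are not reported here. Alternatives were a shift to the median, quantile normalization, the percentile over probes measured on every array, normexp with an offset of 50 on mean and background intensities, filters on background calls, a floor, outlier spots kept, the mean of probes, a 3-fold threshold and the series table. The steps were tested on simulated data. Normexp was run in limma 3.58.1 under R 4.3.3, and all else in pandas 2.3.3 and NumPy 2.4.6 under Python 3.11.15, with plots by matplotlib 3.10.9.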

Additional observations from a re-analysis of the deposited data

Results flagged for a closer look

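Marco and Scarb1 went in opposite directions in the Lamtor1-deficient and the Torin1-treated array, each against the same M2 array. The log2 ratio of Marco was -0.97 in Lamtor1-deficient BMDMs and 0.81 with Torin1. That of Scarb1 was 0.65 in Lamtor1-deficient BMDMs and -1.21 with Torin1, and its other probe had the same signs. With 1 array per condition the difference was not tested.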

How the results depend on the processing

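The number of uptake genes at least 2-fold higher in M1 was 2 with Timd4, which is not well above background, and 1 with probes well above background on at least 1 array, with probes well above background on all arrays compared, and with the floor. With the mean of all probes it was 3, since Msr1 passed at 1.08. The number at least 2-fold higher with Torin1 was 1, and 0 with the median shift and with the 3-fold threshold. With quantile normalization it stayed 1, but Mfge8 fell to 0.82 and Mertk reached 1.03. In no alternative did a count of lower genes, or any count in Lamtor1-deficient BMDMs, move beyond 1.5 times. The probes of the whole array past the threshold were counted in all settings too. The filters test fewer probes, 25553 in place of 55645 in M1 with the stricter one, and the 3-fold threshold calls fewer. The ends of these ranges are therefore unlike counts. They ran in M1 from 7748 to 19693 higher and from 5098 to 13288 lower. In Lamtor1-deficient BMDMs they ran from 1773 to 4748 higher and from 1701 to 5321 lower. With Torin1 they ran from 2841 to 10329 higher and from 2685 to 6993 lower. No replicate could be left out, since each condition had 1 array. No paired analysis was possible because the groups share only 1 replicate number. Signal over background limits Timd4 and Cd163, for which no difference was measurable.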
